A study of Mus musculus with 36 samples.

Results

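The comparison set distal colon of mice given siTNF-OMe, a small interfering RNA (siRNA) against TNFa that carries O-methyl nucleotides, beside distal colon of mice given a scrambled siRNA. Its members were the 6 arrays titled with the O-methyl siRNA and the 7 titled scrambled, of 36 arrays in the series, and all 28853 probe sets of the value table. The mice of both groups carry the label 5% DSS (dextran sulfate sodium), and the siRNAs were given by the rectal route. The series also holds 6 siTNF arrays (the same target without the modification), 8 siTNF-OMe-P arrays (O-methyl-propanediol nucleotides) and 9 Control arrays, which carry the DSS label as well while the design names no siRNA for them. No siRNA dose, strain, sex, age or interval between dosing and tissue collection was given in the sources used here, nor whether equal replicate numbers share anything. Each array carries colon measures of its own in the labels and was taken as 1 animal. The p-values therefore measure the spread between these samples.

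Tumor necrosis factor (TNF) is a cytokine made mainly by macrophages and T cells, and it acts through the receptors TNFR1 and TNFR2 on the NF-kB transcription factors. In the colon it induces chemokines, adhesion molecules and cytokines in epithelial, stromal and endothelial cells, and antibodies against it are used to treat inflammatory bowel disease. DSS in the drinking water injures the colonic epithelium and brings neutrophils and monocytes into the mucosa. An siRNA is loaded into an Argonaute protein and directs cleavage of the matching mRNA. O-methyl groups on the ribose slow nuclease attack on an siRNA and lower its recognition by Toll-like receptors that sense RNA.

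No gene passed the test between siTNF-OMe and scrambled siRNA. Tnf itself was lower by a log2 difference of -0.13, smaller than the spread among the scrambled arrays. The lowest p belonged to Sfrp2, a secreted Wnt antagonist of stromal cells, which was higher by 0.75 with siTNF-OMe. The largest differences were those of squamous keratins such as Krt5 and of the skeletal muscle gene Tnnc2, which were high in 4 of the 6 siTNF-OMe arrays and in none of the 7 scrambled arrays. A linear model (limma) over the 27 siRNA-dosed arrays, with terms for amplification and hybridization batch, called 0 of 28853 probe sets (0%) at an adjusted p under 0.05 and gave a smallest adjusted p of 1. At an unadjusted p under 0.05 stood 831 probe sets (2.88%), fewer than the 1442.65 expected if no probe set differed, and 554 of them (1.92%) were higher and 277 (0.96%) lower with siTNF-OMe. That split was 636 higher and 530 lower after quantile normalization of the arrays, and 923 higher and 1167 lower with the SD of each array as a covariate.

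The precision bounds what these arrays could show. The median standard error of a log2 difference was 0.0893, and the median 95% interval reached 0.184 to either side. For 28617 probe sets (99.2%) the interval lay within 1 log2 unit, a 2-fold change, of no difference, and for 26833 (93%) within 0.5. Counted once per gene, with the probe set of the highest mean signal standing for the gene, 22 of 19938 genes differed by 1 log2 unit or more, 21 of them higher and 1 (Alb) lower with siTNF-OMe. Of these genes 12 belonged to the squamous or skeletal muscle lists described later. Over the other settings tried, Calm4, Calml3, Dapl1, Crabp2, Teddm3 and Arg1 each reached a value below 0, and Ppbp fell to 0.26. The lowest value was 0.45 for both S100a8 and S100a9. Alb stood at 11.94 in scrambled replicate 3, at 8.78 in the next scrambled array and at most at 6.78 with siTNF-OMe. Its difference of -1.25 shrank to -0.06 in 1 setting. The median SD of a probe set was 0.152 among the scrambled arrays and 0.101 among the siTNF-OMe arrays.

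The tissue matched its label: the 5 markers of colon epithelium had mean log2 signals between 12.6 and 12.8 in the scrambled arrays and between 12.5 and 12.7 in the siTNF-OMe arrays, and Hoxb13, a homeobox gene of the hindgut, averaged 11.8. Correlations over all probe sets among the 13 arrays ran from 0.972 to 0.996. Some libraries stood apart. Beside the squamous signal of siTNF-OMe replicates 2 to 5, scrambled replicate 3 carried liver transcripts (Alb 11.94) and scrambled replicate 5 the pancreatic protease Prss2 (12.06). With scrambled replicates 3 and 5 left out, limma still called 0 probe sets and 537 stood at an unadjusted p under 0.05.

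Tnf, the target of the siRNA, did not differ between the groups beyond their spread. Its log2 signal in scrambled replicates 1 to 7 was 9.38, 9.20, 9.47, 8.57, 8.36, 8.56 and 8.67, and in siTNF-OMe replicates 1 to 6 it was 9.09, 8.80, 8.80, 8.41, 8.63 and 9.01. The siTNF-OMe arrays lay inside the range of the scrambled arrays, whose replicates 1 to 3 were high and whose replicates 4 to 7 were low. The fitted difference was -0.13 ± 0.15 (SE), with a 95% interval of -0.44 to 0.19 (limma adjusted p = 1). Within single batches the difference was -0.41 in amplification batch 2 (3 arrays against 3), 0.31 in amplification batch 3 (2 against 3), -0.14 in hybridization batch 1 and -0.09 in hybridization batch 2. The Control arrays had a median of 7.91, and a fit over all 36 arrays put both dosed groups above them, scrambled by 0.96 (limma adjusted p = 1.83e-05) and siTNF-OMe by 0.84 (adjusted p = 0.000148). In that fit 3384 of 28853 probe sets (11.7%) passed between scrambled siRNA and Control. By the labels, every Control animal had lower myeloperoxidase activity and a longer colon than every scrambled and siTNF-OMe animal. What the Control mice received is not stated, so siRNA dosing and DSS injury cannot be told apart as the source of these differences.

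The receptors of TNF were measured at slightly higher levels with siTNF-OMe, and none passed the test. Tnfrsf1a, which encodes TNFR1, ranged from 10.82 through a median of 11.12 to 11.50 with scrambled siRNA and from 11.33 through 11.40 to 11.56 with siTNF-OMe. The groups overlapped, with the siTNF-OMe arrays at the upper end, and the difference was 0.24 ± 0.11 (95% interval 0.01 to 0.47, limma adjusted p = 1). Tnfrsf1b, which encodes TNFR2, differed by 0.29 ± 0.17, and Adam17, the protease that sheds TNF from the cell surface, by 0.10. Of the 23 measured genes of the list of TNF ligands, receptors and proximal signalling, 1 stood at an unadjusted p under 0.05, 11 lay above 0 and 12 below, and the median difference was -0.01. Over all 19938 genes the median was -0.01 too, 3.21% stood at an unadjusted p under 0.05 (2.31% higher and 0.903% lower), and 42.5% lay above 0. In bulk tissue, fewer cells of a type and less RNA per cell cannot be told apart.

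Downstream of the receptors, the 15 NF-kB subunits and feedback genes had a median difference of 0.07 and no member at an unadjusted p under 0.05. Nfkbia, the inhibitor that NF-kB induces against itself, was higher by 0.25 ± 0.16, and Tnfaip3, the deubiquitinase A20, was lower by -0.09. The subunit Rel had the largest difference of the list, 0.44 ± 0.26. Among 30 TNF and NF-kB target genes, 22 lay above 0 and the median was 0.20. Those at an unadjusted p under 0.05 were Cxcl5, a neutrophil chemokine (0.87 ± 0.29), Mmp3, the matrix protease stromelysin-1 (0.93 ± 0.45), and Vcam1, a leukocyte adhesion molecule (0.38 ± 0.17), each with a limma adjusted p of 1. Ptgs2, the inducible cyclooxygenase, was higher by 0.94 ± 0.47 and Il1b by 0.64 ± 0.43, Saa3, serum amyloid A, by 0.78 ± 0.52 and Lcn2, the iron-scavenging lipocalin, by 0.48 ± 0.35, while Ccl2 (0.04) and Icam1 (0.03) were near 0 and Nos2 was at -0.17. Cxcl5 ranged from 6.49 through 6.92 to 8.11 with scrambled siRNA and from 7.33 through 8.01 to 8.62 with siTNF-OMe, and 3 siTNF-OMe arrays lay above all scrambled arrays. The 7 genes listed as neutrophil chemokines, among them Cxcl1 (0.07 ± 0.19) and Cxcl2 (0.63 ± 0.48), had a median of 0.23 with 6 above 0. That median was the value of Pf4, and the highest member was Ppbp (2.33), both best known from platelets. The mean of the target list was 0.72 higher with siTNF-OMe inside amplification batch 3 and 0.05 higher inside batch 2, and it was lower by -0.15 in the single pair of batch 1.

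**Figure D1:**
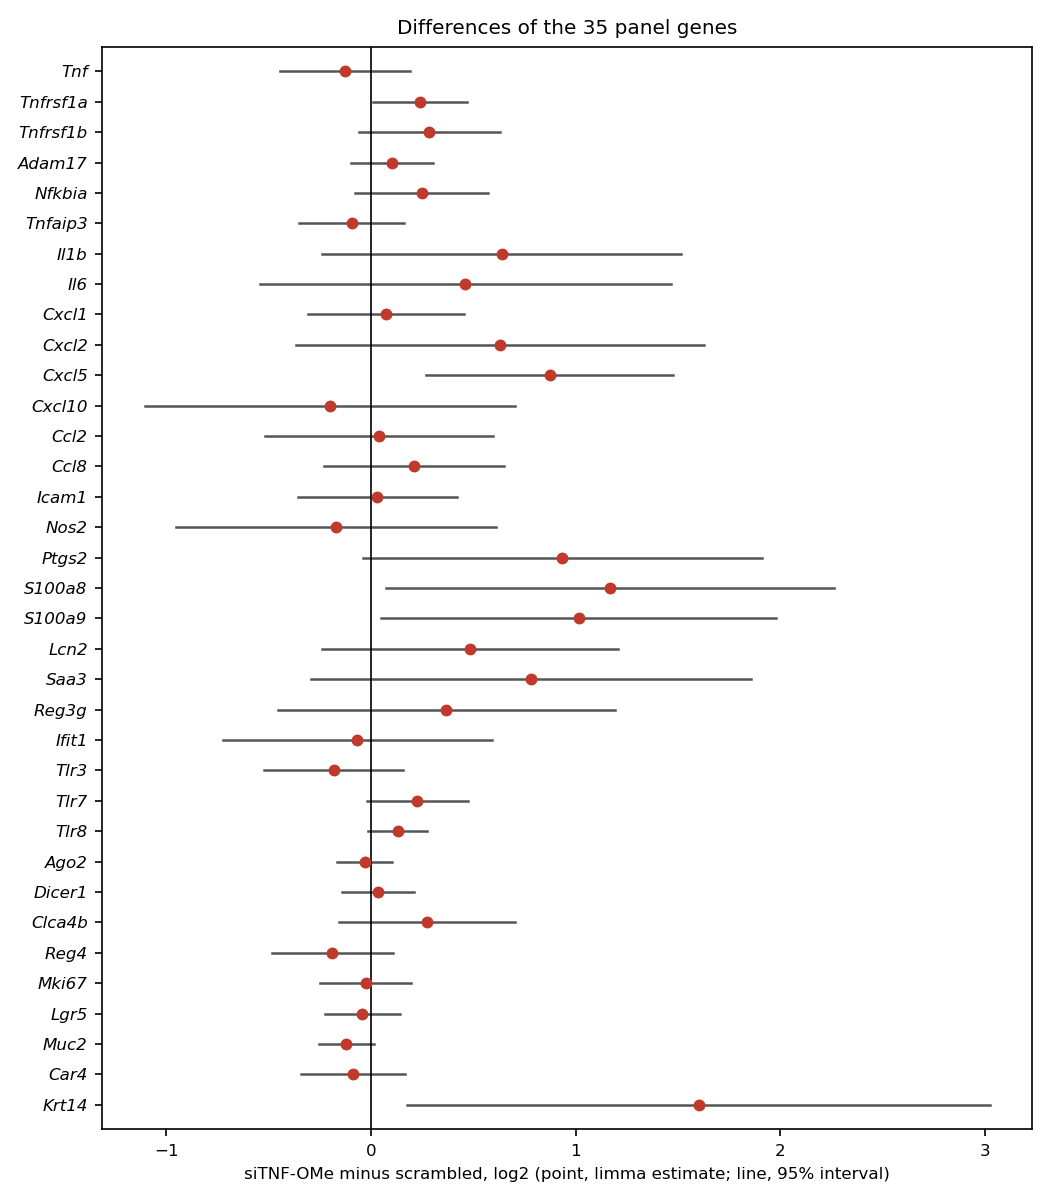
Log2 difference, siTNF-OMe minus scrambled, of the 35 panel genes that the array measured; points are limma estimates and lines their 95% intervals. The interval of Tnf runs from -0.44 to 0.19, and those of S100a8, S100a9 and Krt14 are among the widest.

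Sfrp2 had the smallest p of all genes, without passing the test. It had a log2 signal between 8.90 and 9.80 with a median of 9.29 in the scrambled arrays, and between 9.66 and 10.36 with a median of 10.27 in the siTNF-OMe arrays. Replicates 2 to 5 of siTNF-OMe, the arrays that also carried squamous and skeletal muscle transcripts, lay above every scrambled array, while replicates 1 (9.66) and 6 (9.72) lay below scrambled replicate 6 (9.80). The difference was 0.75 ± 0.16 (95% interval 0.42 to 1.08, limma adjusted p = 1), or 1.68-fold. It stayed between 0.58 and 1.05 inside amplification batches 2 and 3 and hybridization batches 1 and 2. Without scrambled replicate 6 the difference was 0.87 and Sfrp2 alone passed the test (limma adjusted p = 0.0374), whereas leaving out any other single array of the 2 groups left 0 probe sets called.

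The other genes among the 10 of smallest p on the higher side were Dcn, Cxcl12, Cxcr4, S1pr1, Cacng7, Ppic, Nr2f1, Rbms3 and Ggt5, all with a limma adjusted p of 1. Dcn, the collagen-binding proteoglycan decorin, ranged from 12.13 through 12.39 to 12.66 with scrambled siRNA and from 12.43 through 12.79 to 12.96 with siTNF-OMe, a difference of 0.30 ± 0.08. Cxcl12, a stromal chemokine, ranged from 9.82 through 9.96 to 10.45 and from 10.21 through 10.52 to 10.66, a difference of 0.40 ± 0.11. Its receptor Cxcr4 ranged from 10.08 through 10.58 to 10.85 and from 10.75 through 11.04 to 11.28, a difference of 0.51 ± 0.15. In all 3 genes the siTNF-OMe arrays sat high and the groups overlapped. S1pr1, a sphingosine-1-phosphate receptor of endothelium and lymphocytes, was higher by 0.38 ± 0.11. The differences were 0.34 for Cacng7, 0.36 for Ppic, a peptidyl-prolyl isomerase, 0.36 for the nuclear receptor gene Nr2f1, 0.24 for Rbms3 and 0.36 for Ggt5, a glutamyl transferase.

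**Figure D2:**
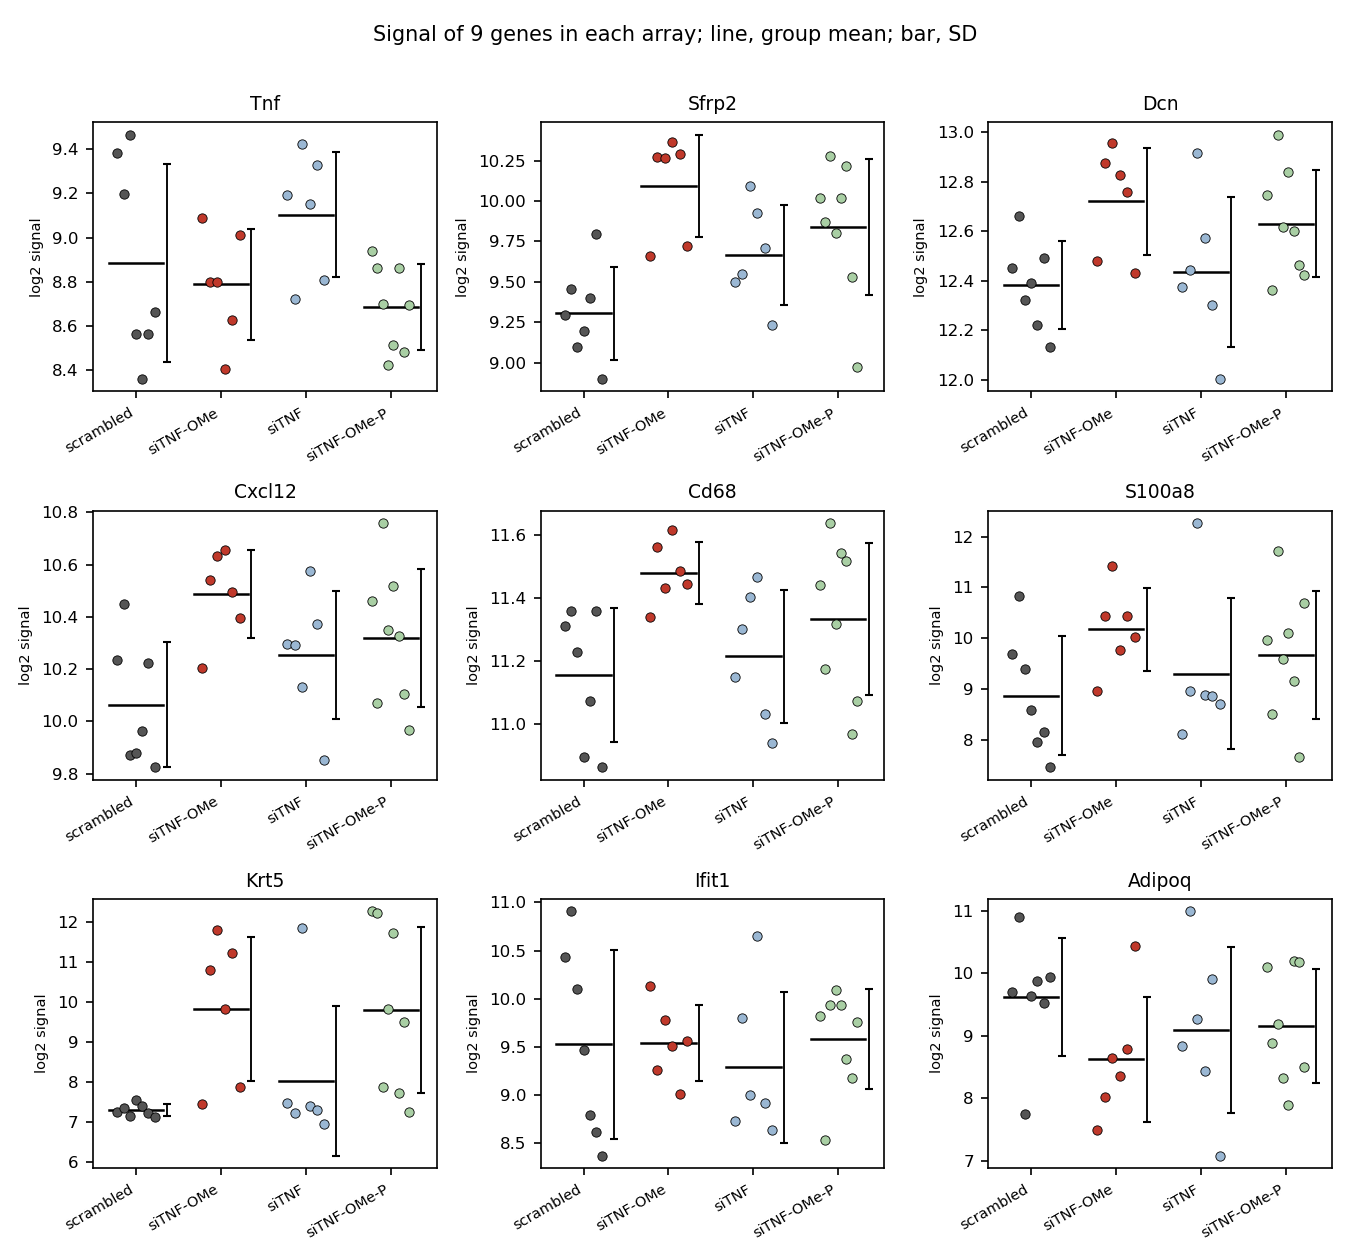
Log2 signal of 9 genes in each array of the 4 siRNA-dosed groups (points), with group means (lines) and SD (bars). Sfrp2, Dcn, Cxcl12 and Cd68 lie higher in siTNF-OMe than in scrambled arrays with overlap, Krt5 is high in a subset of siTNF-OMe and siTNF-OMe-P arrays and in 1 siTNF array, and the Tnf values of siTNF-OMe lie inside the scrambled range.

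As groups, the 20 fibroblast and collagen genes had a median difference of 0.15, with 19 above 0 and 5 (Dcn, Lum, Thy1, Vim and Postn) higher at an unadjusted p under 0.05. Their mean was higher with siTNF-OMe inside each amplification batch, by 0.13, 0.18 and 0.20. Lum, the proteoglycan lumican, had the largest difference of the list (0.47 ± 0.14), and the collagen genes Col1a1 and Col3a1 differed by 0.12 ± 0.15 and 0.27 ± 0.15. Of 17 endothelial genes, 15 lay above 0 and the median was 0.15 (0.04 in hybridization batch 1 alone). Their mean differed by -0.05, 0.16 and 0.25 in amplification batches 1 to 3. Emcn, the endothelial sialomucin endomucin, was higher by 0.34 ± 0.11 (limma adjusted p = 1), and Esam, Eng, Lyve1 and Tie1 also stood higher at an unadjusted p under 0.05. The 15 smooth muscle genes had a median of 0.06 and the 16 enteric neuron and glia genes one of 0.05.

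Matrix remodelling genes had the highest median of the 44 lists after the squamous and skeletal muscle genes. Of 17 measured members 16 lay above 0, 6 stood higher at an unadjusted p under 0.05, and the median was 0.27. These 6 were Mmp3, Plat (tissue plasminogen activator, 0.77 ± 0.29), Timp1 (an inhibitor of matrix proteases, 0.75 ± 0.34), Adamts4 (an aggrecan-cleaving protease, 0.70 ± 0.34), Mmp2 (0.41 ± 0.16) and Mmp14 (0.27 ± 0.13). Mmp3 ranged from 8.95 through 9.75 to 11.57 with scrambled siRNA and stood at 9.67, 11.54, 11.29, 10.70, 11.51 and 10.41 in siTNF-OMe replicates 1 to 6. Scrambled replicate 2 was the highest of all 13 arrays for Mmp3, and the groups overlapped. By amplification batch the list mean differed by -0.07, 0.40 and 0.65.

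Neutrophil and macrophage genes were measured at higher levels in most siTNF-OMe arrays, and none passed the test. S100a8, a subunit of the neutrophil protein calprotectin, ranged from 7.45 through 8.59 to 10.83 with scrambled siRNA and from 8.96 through 10.23 to 11.41 with siTNF-OMe. The difference was 1.17 ± 0.53 (95% interval 0.07 to 2.26, limma adjusted p = 1), and that of its partner S100a9 was 1.02 ± 0.47. The groups overlapped, since scrambled replicate 2 (10.83) exceeded all siTNF-OMe arrays except replicate 3 (11.41). Of 18 neutrophil markers 15 lay above 0 with a median of 0.25 (0.16 without siTNF-OMe replicate 3), yet the granule enzyme genes Mpo (0.02 ± 0.09), Elane (-0.09) and Prtn3 (-0.08), which neutrophils transcribe mainly while they form in marrow, were near 0. Mean marker levels differed by -0.17, 0.35 and 0.58 in amplification batches 1 to 3. In hybridization batches 1 and 2 alone the median of the markers was 0.04 and 0.50, and S100a8 differed by 0.45 ± 0.75 and 1.95 ± 0.50.

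Cd68, a lysosomal protein of macrophages, ranged from 10.86 through 11.23 to 11.36 with scrambled siRNA and from 11.34 through 11.46 to 11.62 with siTNF-OMe. Only siTNF-OMe replicate 1 (11.34) lay below the highest scrambled arrays, and the difference was 0.30 ± 0.09 (95% interval 0.10 to 0.49, limma adjusted p = 1). Of 22 monocyte and macrophage markers 19 lay above 0 with a median of 0.20 (0.13 without scrambled replicate 4). Cd68, Fcgr3 (an IgG receptor) and Lyz2 (lysozyme) stood higher at an unadjusted p under 0.05. The median of the list was 0.05 in hybridization batch 1 alone and 0.36 in batch 2 alone. Its mean differed by -0.10, 0.26 and 0.36 in amplification batches 1 to 3. The largest difference of that list was that of Arg1, arginase, at 1.04 ± 0.52, whose high arrays were siTNF-OMe replicates 2, 3 and 5 (9.72, 10.14 and 9.85). Those 3 arrays were also high for squamous keratins, and Arg1 was at 0.03 ± 0.18 without the arrays of high squamous mean and at -0.08 ± 0.31 with the squamous mean as a covariate. Among 20 complement and acute phase genes the median was 0.11, and Cfp (properdin, 0.35 ± 0.11), C1qb, C1qc and Serpina3n stood higher at an unadjusted p under 0.05.

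Lymphocyte genes showed little difference. The 19 T and NK cell markers had a median of -0.02, and Cd4, the helper T cell coreceptor that some macrophages also carry, was the member at an unadjusted p under 0.05 (0.24 ± 0.11). The 17 B and plasma cell markers had a median of 0.02, and the 17 dendritic and class II presentation genes one of 0.02. Of 25 monocyte and lymphocyte chemokines Cxcl12, Cxcl13 (a B cell attractant, 0.45 ± 0.20) and Cxcl16 (0.22 ± 0.09) stood higher at an unadjusted p under 0.05, and the median was 0.02. Among 27 cytokines the only such member was Tgfb1 (0.26 ± 0.11), while Il6 (0.46 ± 0.49) had an interval that reached far to both sides of 0.

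Keratins and cornified envelope genes of stratified squamous epithelium, which lines the anal canal and skin but not the colon, gave the largest differences. Krt5, a keratin of basal squamous cells, lay between 7.12 and 7.55 in the scrambled arrays, and at 7.44, 10.81, 11.80, 9.83, 11.23 and 7.88 in siTNF-OMe replicates 1 to 6. Replicates 2 to 5 thus stood far above every scrambled array, and replicate 1 did not. The difference was 2.42 ± 0.87 (95% interval 0.63 to 4.20, limma adjusted p = 1). Lor, the envelope protein loricrin (2.36 ± 0.77), Krt13 (2.23 ± 0.75) and Krt14 (1.60 ± 0.69) followed the same arrays. All 23 measured squamous genes lay above 0 and 11 stood higher at an unadjusted p under 0.05, with a median of 0.75.

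The same 4 siTNF-OMe arrays carried skeletal muscle transcripts. Tnnc2, fast skeletal troponin C, lay between 7.77 and 8.41 in the scrambled arrays and at 8.16, 10.86, 12.11, 9.90, 12.10 and 8.53 in the siTNF-OMe arrays, a difference of 2.07 ± 0.76 (95% interval 0.51 to 3.64, limma adjusted p = 1). All 14 skeletal muscle genes lay above 0 with a median of 0.46 (0.27 without siTNF-OMe replicate 3). Ppbp, a chemokine precursor best known from platelets, had the same pattern (6.89, 10.60, 11.27, 8.81, 10.87 and 7.35 with siTNF-OMe, 6.73 to 7.08 with scrambled siRNA), whereas Pf4, the other platelet chemokine, differed by 0.23 ± 0.12. Mean squamous levels were 7.08 to 7.32 in the scrambled, 6.96 to 7.55 in the Control arrays, and 8.16 to 9.25 in siTNF-OMe replicates 2 to 5. Similar means appeared in siTNF replicate 3 (8.22) and in siTNF-OMe-P replicates 1, 2 and 5 (10.01, 9.29 and 8.98).

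The gene groups above were therefore fitted again without the 8 arrays whose squamous mean was 8 or more, which left 2 siTNF-OMe arrays, replicates 1 and 6. The skeletal muscle median was then 0.02. The squamous median, -0.01, was near 0 by construction, since that list chose the arrays left out. The median was 0.19 for neutrophil markers, 0.18 for macrophage markers, 0.27 for TNF and NF-kB targets, 0.19 for matrix remodelling, 0.09 for fibroblast and 0.15 for endothelial genes, beside -0.01 over all genes. Sfrp2 was then at 0.54 ± 0.26, S100a8 at 1.01 ± 0.81, Cd68 at 0.30 ± 0.16 and Mmp3 at 0.39 ± 0.71. Dcn was at 0.14 ± 0.12 and Arg1 at 0.03 ± 0.18, and Tnf turned to 0.22 ± 0.24. The 2 siTNF-OMe animals left had the highest myeloperoxidase activity of their group, an enzyme assay for neutrophils (1.157 and 0.932 U/mg, beside 0.217 to 0.643 in the others). limma called 0 probe sets in that fit, with 1261 at an unadjusted p under 0.05. With all arrays kept and the squamous mean as a covariate, the medians were 0.13 for neutrophil markers, 0.18 for macrophage markers and 0.13 for TNF and NF-kB targets. They were 0.17 for matrix remodelling, 0.06 for fibroblast, 0.12 for endothelial and -0.20 for skeletal muscle genes, beside -0.03 over all genes. The squamous median, -0.08, follows from the covariate itself, which is the mean of that list. In that fit Sfrp2 was at 0.59 ± 0.17, S100a8 at 0.88 ± 0.59, Cd68 at 0.29 ± 0.11, Mmp3 at 0.56 ± 0.48 and Dcn at 0.22 ± 0.08.

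**Figure D3:**
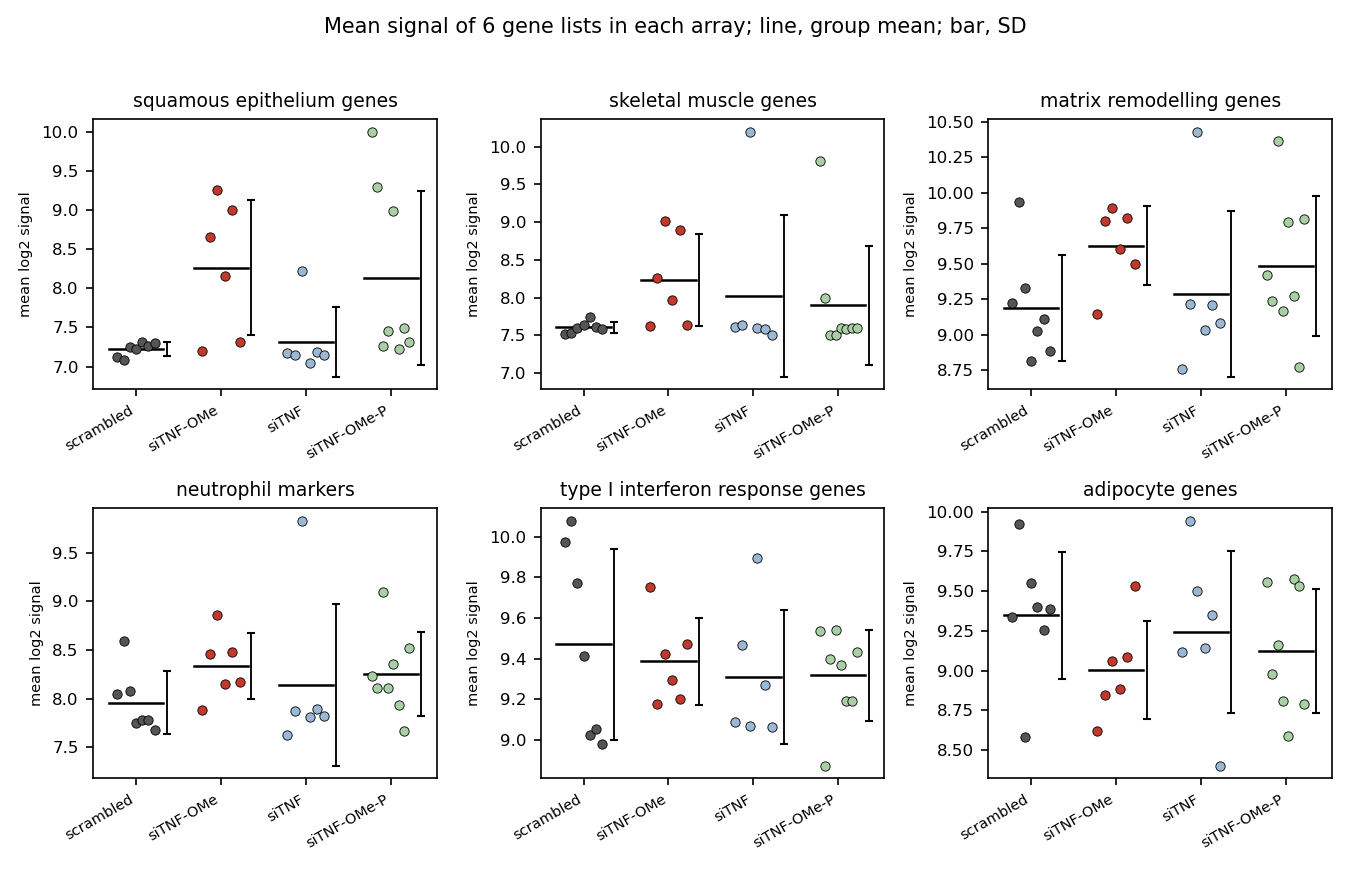
Mean log2 signal of 6 gene lists in each array of the 4 siRNA-dosed groups (points), with group means (lines) and SD (bars). Squamous means are 8.16 to 9.25 in 4 siTNF-OMe arrays and at most 7.32 in the scrambled arrays, while the interferon means of 3 scrambled arrays (9.77 to 10.08) lie above every siTNF-OMe array.

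Genes that sense foreign RNA and carry out RNA interference did not differ beyond the replicate spread. Among the Toll-like receptors, Tlr7, which binds single-stranded RNA, ranged from 6.99 through 7.15 to 7.39 with scrambled siRNA and from 7.18 through 7.42 to 7.78 with siTNF-OMe, a difference of 0.23 ± 0.12 (95% interval -0.02 to 0.48). Of the siTNF-OMe arrays 4 lay above every scrambled array for Tlr7. Tlr8 differed by 0.13 ± 0.07, and Tlr3, which binds double-stranded RNA, by -0.18 ± 0.16. The 20 foreign RNA sensing genes had a median of -0.03 with no member at an unadjusted p under 0.05. Ago2, the Argonaute that cleaves the target, differed by -0.03 ± 0.07 and Dicer1, the nuclease that makes short RNAs, by 0.03 ± 0.09, and the 17 RNA interference machinery genes had a median of -0.02.

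Interferon-induced genes were lower on average with siTNF-OMe, though not within every batch. Of 27 type I interferon response genes 24 lay below 0, the median was -0.13, and none stood at an unadjusted p under 0.05. Their mean in scrambled replicates 1 to 7 was 9.97, 10.08, 9.77, 9.41, 9.02, 9.05 and 8.98, and in siTNF-OMe replicates 1 to 6 it was 9.75, 9.18, 9.42, 9.30, 9.20 and 9.47. Scrambled replicates 1 to 3 were the highest arrays and replicates 5 to 7 the lowest, with siTNF-OMe between. Inside amplification batches 1, 2 and 3 the list mean differed by -0.22, -0.46 and 0.32, so the direction did not hold across them. The median was -0.02 without scrambled replicate 2 (all genes -0.02), -0.03 without scrambled replicate 1, -0.05 without siTNF-OMe replicate 2 and -0.20 without siTNF-OMe replicate 1. Against the same scrambled arrays the median of this list was -0.18 with siTNF and -0.19 with siTNF-OMe-P, so the direction was not particular to siTNF-OMe.

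Ifit1, an interferon-induced RNA-binding protein, differed by -0.07 ± 0.32 over all arrays, and Cxcl10, a chemokine induced by interferon gamma, by -0.20 ± 0.44. The 18 genes of class I presentation and interferon gamma response all lay below 0 with a median of -0.22. Against the same scrambled arrays their median was -0.26 with siTNF and -0.28 with siTNF-OMe-P. Tap2, a subunit of the peptide transporter, was the member at an unadjusted p under 0.05 (-0.24 ± 0.12, limma adjusted p = 1), and Gbp4, a guanylate-binding protein, had the largest difference (-0.49 ± 0.39). The class I median was -0.12 to -0.14 without any 1 of scrambled replicates 1 to 3. In the 3 amplification batches the mean of that list differed by -0.31, -0.54 and 0.17. Without the 8 arrays of high squamous mean the medians of the type I and class I lists were 0.20 and 0.07, so neither direction held there.

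Epithelial genes lay slightly lower in most cases. Of 17 goblet cell genes 16 lay below 0, with a median of -0.12 (-0.06 without scrambled replicate 1, -0.07 without scrambled replicate 4) and none at an unadjusted p under 0.05. Muc2, the main secreted mucin, ranged from 12.68 through 12.81 to 12.96 with scrambled siRNA and from 12.50 through 12.69 to 12.88 with siTNF-OMe, a difference of -0.12 ± 0.07. Among 25 absorptive colonocyte and ion transport genes 18 lay below 0 and the median was -0.16, or -0.04 without siTNF-OMe replicate 5 (all genes -0.02) and -0.10 without scrambled replicate 4. Slc20a1, a phosphate transporter, ranged from 10.10 through 10.94 to 11.61 and from 9.95 through 10.38 to 10.88, a difference of -0.57 ± 0.24 (95% interval -1.07 to -0.06, limma adjusted p = 1). Hsd11b2, which inactivates glucocorticoid, was the low member of the xenobiotic and steroid metabolism list (-0.48 ± 0.22), with 4 of 6 siTNF-OMe arrays below every scrambled array.

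Cell contacts and energy genes were similar in direction. Of 19 junction genes 16 lay below 0 with a median of -0.09, and Cgn, the tight junction protein cingulin (-0.23 ± 0.10), and Cdh1, E-cadherin (-0.14 ± 0.06), stood lower at an unadjusted p under 0.05. Cldn1, a claudin, ran the other way (0.48 ± 0.23). The 16 mitochondrial fatty acid and butyrate oxidation genes had a median of -0.10, with the coactivator Ppargc1a at -0.50 ± 0.26 and Acads, a short-chain acyl-CoA dehydrogenase, at -0.27 ± 0.13. The 16 distal colon identity genes had a median of -0.09. Medians of the goblet and colonocyte lists turned to 0.04 and 0.06 without the 8 arrays of high squamous mean.

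Proliferation and stem cell genes lay close to 0. Mki67, a marker of cycling cells, differed by -0.03 and Lgr5, a crypt stem cell receptor, by -0.04, and 25 cell cycle genes had a median of 0.02. Among 19 stem cell and Wnt target genes the median was 0.00, and Prom1 (0.30 ± 0.11), Smoc2 (0.29 ± 0.13) and Nkd1 (0.19 ± 0.08) stood higher at an unadjusted p under 0.05. The 16 wound healing and repair genes had a median of 0.18, and Hgf, hepatocyte growth factor (0.55 ± 0.23), and Sprr1a, a cornified envelope protein (1.04 ± 0.41), were their members past that level. Antimicrobial genes had a median of 0.01 over 23 members; Slpi, a protease inhibitor of mucosal secretions, was higher by 0.20 ± 0.08, and Reg3g, a bactericidal lectin, by 0.37 ± 0.40.

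Fat cell genes had the lowest median of the 44 lists, -0.30, with 11 of 13 members below 0. Adipoq, the adipocyte hormone adiponectin, ranged from 7.74 through 9.70 to 10.90 with scrambled siRNA and from 7.50 through 8.50 to 10.43 with siTNF-OMe, a difference of -0.99 ± 0.55. Plin1, which coats lipid droplets, differed by -0.49 ± 0.17 (95% interval -0.83 to -0.14, limma adjusted p = 1), and 4 of 6 siTNF-OMe arrays lay below all scrambled arrays. Pck1, a gluconeogenic enzyme also made in fat, was the other list member at an unadjusted p under 0.05 (-0.68 ± 0.31). Lgals12, a galectin of fat cells, was lower by -0.34 ± 0.11. The list mean differed by -0.71, -0.42 and -0.04 in amplification batches 1 to 3. The list median was -0.11 without scrambled replicate 2, where absorptive colonocyte (-0.16) and class I presentation genes (-0.12) were lower. It was -0.19 without siTNF-OMe replicate 1, where class I presentation (-0.24), type I interferon (-0.20) and absorptive colonocyte genes (-0.20) were lower. In hybridization batch 2 alone it was 0.00.

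The other genes among the 10 of smallest p on the lower side had small differences. They were Bfsp1 (-0.18), 4930519F09Rik (-0.15), Rpph1 (the RNA of ribonuclease P, -0.18), Cabcoco1 (-0.22), Gm8995 (-0.37), Gfi1 (a transcriptional repressor, -0.18), Acvr1c (an activin receptor, -0.18) and Ngef (-0.32), all with a limma adjusted p of 1. In 9 genes (0.0451% of 19938) all 6 siTNF-OMe arrays lay above all 7 scrambled arrays, and in 2 genes (0.01%) all lay below. A random order of 6 and 7 arrays would separate a share of 0.000583 of genes in each direction, and neither count exceeded that share. The 9 were Acer2, Lce1c, Mef2c, Pcdhb7, Ptp4a3, Rftn1, Ube2s, Wbp1l and Wdr91, and the 2 were D430042O09Rik and Fthl17f. Acer2, a ceramidase, ranged from 9.11 to 9.33 with siTNF-OMe and from 8.72 to 9.09 with scrambled siRNA, a fitted difference of 0.23 ± 0.15. Mef2c, a transcription factor of muscle and endothelium, differed by 0.20 ± 0.09.

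Over the 44 lists, which hold 742 different measured genes, 26 medians lay above 0 and 18 below, and no member of any list passed the test. The remaining lists had medians between -0.08 and 0.12. Immediate early and stress genes had the largest of these (0.12), with Dusp1, a phosphatase of MAP kinases, at 0.72 ± 0.30 and Nr4a1, an orphan nuclear receptor, at 0.67 ± 0.36. Isl1, a transcription factor of enteroendocrine cells and neurons, was higher by 0.41 ± 0.12 and Ednrb, an endothelin receptor, by 0.31 ± 0.15. Among endoplasmic reticulum stress genes Xbp1 stood higher (0.26 ± 0.10) and Ern2, a stress sensor of goblet cells, lower (-0.32 ± 0.15). Nlrp6, an inflammasome sensor of the epithelium, was at -0.63 ± 0.31, and Nfil3, a repressor tied to the clock, at 0.62 ± 0.31. None of these genes passed the test.

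**Figure D4:**
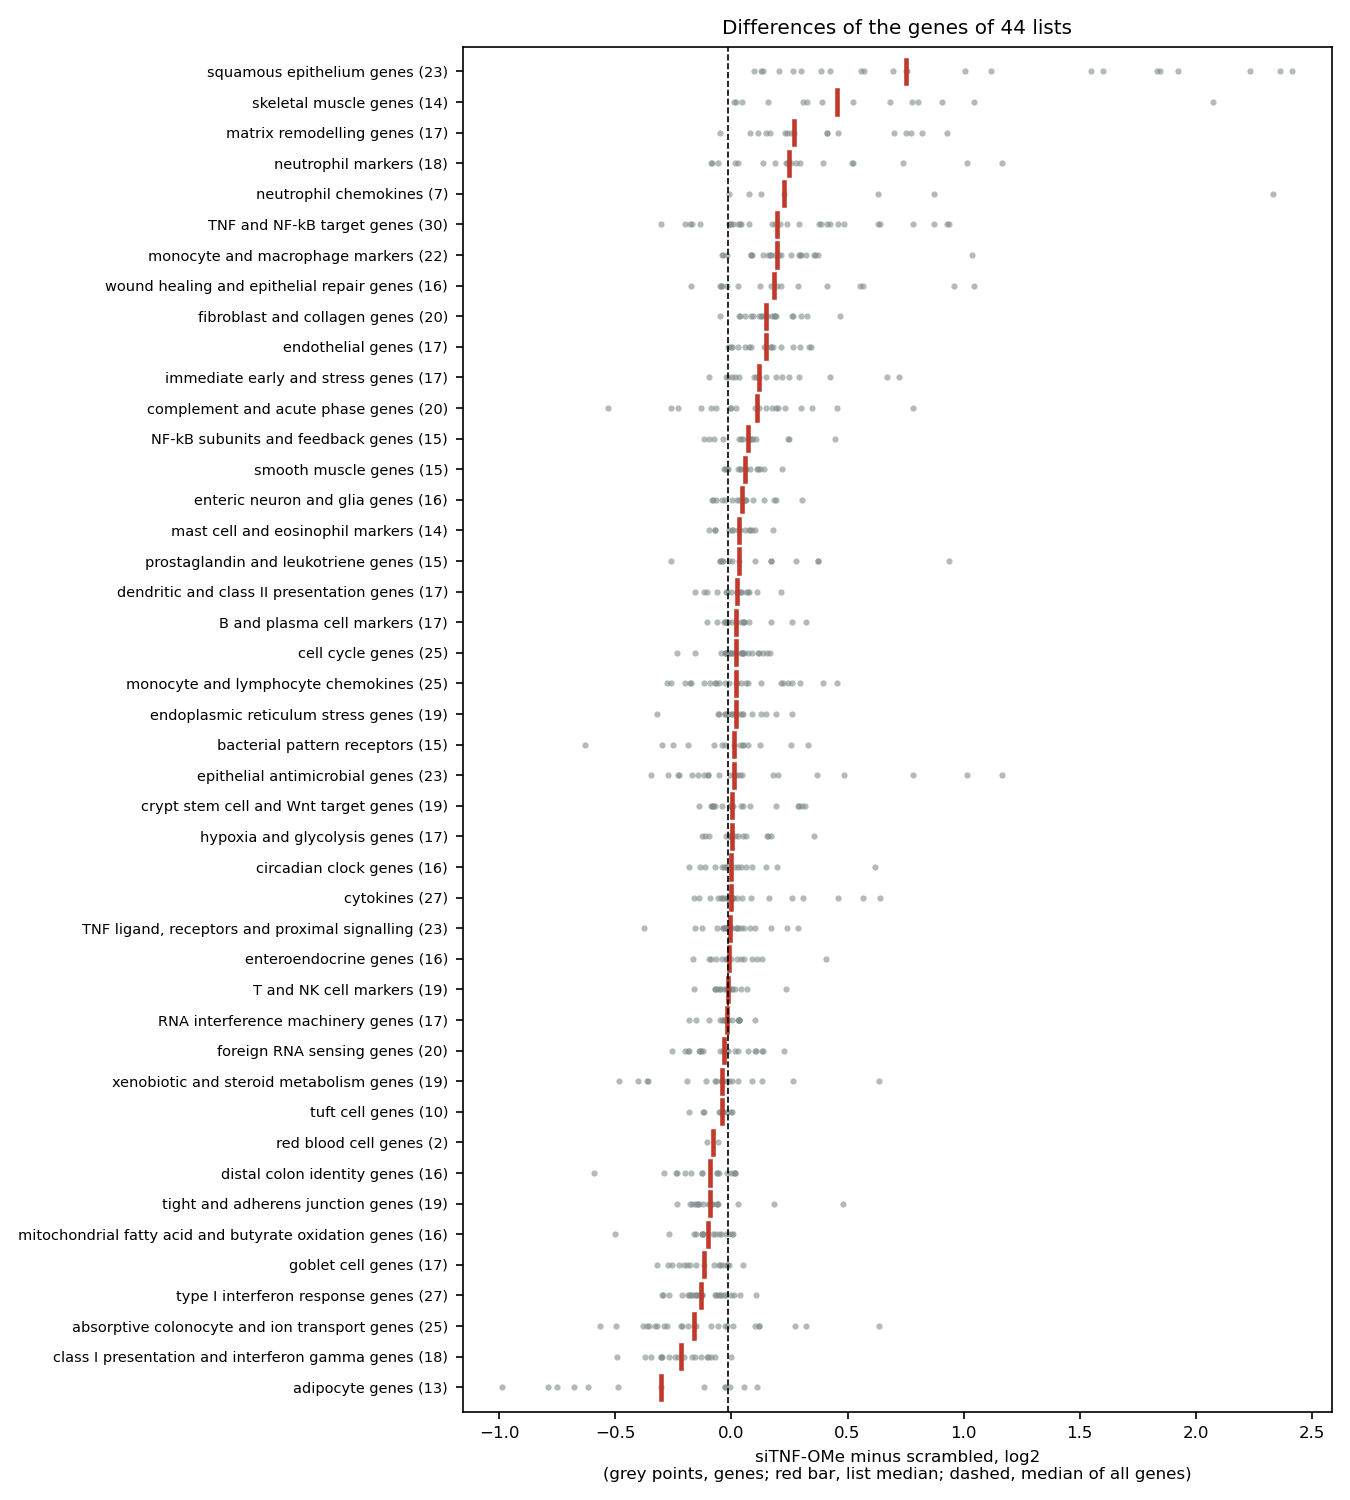
Log2 differences, siTNF-OMe minus scrambled, of the measured genes of 44 lists (grey points), with list medians (red bars) and the median of all genes (dashed line); the number of genes is in parentheses. Squamous (0.75) and skeletal muscle (0.46) medians lie farthest to the right and the adipocyte median (-0.30) farthest to the left.

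Set against the unmodified siRNA, siTNF-OMe again gave no call, and doses are not given, so it is unknown whether they matched. The 2 pairs compared were siTNF-OMe with siTNF and with siTNF-OMe-P, and p-values were adjusted over all probe sets within each. limma called 0 of 28853 probe sets (0%) between siTNF-OMe and siTNF, with a smallest adjusted p of 0.879 and 1425 probe sets (4.94%) at an unadjusted p under 0.05, 597 (2.07%) higher and 828 (2.87%) lower with siTNF-OMe. Tnf ranged from 8.72 through 9.17 to 9.42 in the siTNF arrays and was lower in siTNF-OMe by -0.30 ± 0.16 (95% interval -0.63 to 0.03, limma adjusted p = 0.879). Hnrnpdl, an RNA-binding protein, lay between 10.37 and 10.54 with siTNF-OMe, below all siTNF arrays (10.58 to 11.35), a difference of -0.43 ± 0.09. Eif6, a ribosome assembly factor, lay between 11.50 and 11.78 with siTNF-OMe and between 11.79 and 12.04 with siTNF, a difference of -0.26 ± 0.06. For 25768 probe sets (89.3%) the 95% interval of the difference from siTNF lay within 0.5 log2 units of 0.

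Other genes of small p against siTNF were Fabp5, a fatty acid binding protein of epithelia (0.77 ± 0.20), Aplnr, the apelin receptor of endothelium (0.57 ± 0.15), and Tcf21, a mesenchymal transcription factor (0.53 ± 0.14), all with a limma adjusted p of 0.879. The 10 higher genes of smallest p also held Lce3c, a late cornified envelope gene (0.42 ± 0.11), and the hair keratin-associated genes Krtap5-2 (0.86 ± 0.24), Krtap6-2 (0.69 ± 0.20) and Krtap1-4 (0.25 ± 0.07). On the lower side stood Bach1, a repressor of heme-responsive genes (-0.25 ± 0.07), and the NF-kB feedback genes Tnfaip3 (-0.40 ± 0.13) and Nfkbia (-0.40 ± 0.16). For Nfkbia the siTNF arrays reached 13.03 in replicate 3, the array with the squamous signal, and 268 probe sets stood at an unadjusted p under 0.05 without the 8 arrays of high squamous mean. Median differences against siTNF were -0.09 for NF-kB subunits and feedback genes, 0.17 for matrix remodelling, 0.12 for fibroblast, -0.27 for absorptive colonocyte, 0.87 for squamous and 0.22 for skeletal muscle genes, beside -0.01 over all genes.

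Against siTNF-OMe-P, which differs by the propanediol part of its modified nucleotides, limma called 0 of 28853 probe sets (0%), with a smallest adjusted p of 1 and 287 (0.995%) at an unadjusted p under 0.05, 56 (0.194%) higher and 231 (0.801%) lower. Tnf ranged from 8.42 through 8.70 to 8.94 in the siTNF-OMe-P arrays and differed by 0.11 ± 0.15 (95% interval -0.20 to 0.42, limma adjusted p = 1). Krt5 differed by 0.03 ± 0.84 and S100a8 by 0.41 ± 0.52, both with wide intervals. Cd4 (0.27 ± 0.11), Gpr137b (0.23 ± 0.08, with its pseudogene copy Gpr137b-ps also among the genes of smallest p), Sat1 (a polyamine enzyme, 0.19), Ctss (cathepsin S, 0.10) and Muc3 (a membrane mucin, 0.10) stood higher at small unadjusted p, and Zdbf2 lower (-0.18 ± 0.05), all with an adjusted p of 1. For 27582 probe sets (95.6%) the interval of the difference from siTNF-OMe-P lay within 0.5 log2 units of 0. Measured against scrambled siRNA, Tnf stood at 0.17 ± 0.16 with siTNF, at -0.13 ± 0.15 with siTNF-OMe and at -0.23 ± 0.14 with siTNF-OMe-P, and these 3 values share their scrambled arrays. Some list medians over scrambled siRNA had the direction of siTNF-OMe with siTNF and siTNF-OMe-P too. They were 0.21 and 0.14 for TNF and NF-kB targets, 0.31 and 0.32 for neutrophil chemokines, and 0.13 and 0.14 for endothelial genes. Others did not: squamous genes had -0.05 with siTNF and 0.63 with siTNF-OMe-P, and absorptive colonocyte genes 0.09 and -0.20.

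None of the 4 measures of the colon given with the arrays passed a test between the groups. Myeloperoxidase (MPO) activity, an enzyme assay for neutrophils in tissue, was 0.606 ± 0.375 U/mg (SD, n = 6) with siTNF-OMe and 0.583 ± 0.440 U/mg (SD, n = 7) with scrambled siRNA, a difference of 0.0224 (95% interval -0.494 to 0.528; two-sided exact permutation p = 0.919, adjusted p = 0.919). In both groups a few animals were high: values ran from 0.217 through 0.514 to 1.157 with siTNF-OMe and from 0.238 through 0.393 to 1.35 with scrambled siRNA. By hybridization batch the difference was -0.210 and 0.180. Colon length, whose labelled unit (mm) does not match the labelled ratio, was 5.93 ± 0.280 with siTNF-OMe and 6.07 ± 0.304 with scrambled siRNA (difference -0.138, exact permutation p = 0.492, adjusted p = 0.656).

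Colon weight was 170.5 ± 4.37 mg with siTNF-OMe and 166 ± 13.9 mg with scrambled siRNA, a difference of 4.64 mg (95% interval -9 to 18, exact permutation p = 0.457, adjusted p = 0.656). The siTNF-OMe weights, 164 to 177 mg, lay inside the scrambled range of 150 to 183 mg. The labelled weight to length ratio fits a length 10 times the labelled one except in scrambled replicate 7, labelled 2.76 where weight and length give 2.59, and in siTNF-OMe replicate 1, labelled 2.82 where they give 2.8. As labelled, it was 2.88 ± 0.103 against 2.76 ± 0.225 (difference 0.122, 95% interval -0.111 to 0.354, exact permutation p = 0.246, adjusted p = 0.656), and from weight and length the difference was 0.142. With 6 and 7 animals the smallest p such a test can give is 0.000583. Within hybridization batches 1 and 2 the ratio differed by 0.106 and 0.152, length by 0.2 and -0.442, and weight by 11.7 and -0.917.

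**Figure D5:**
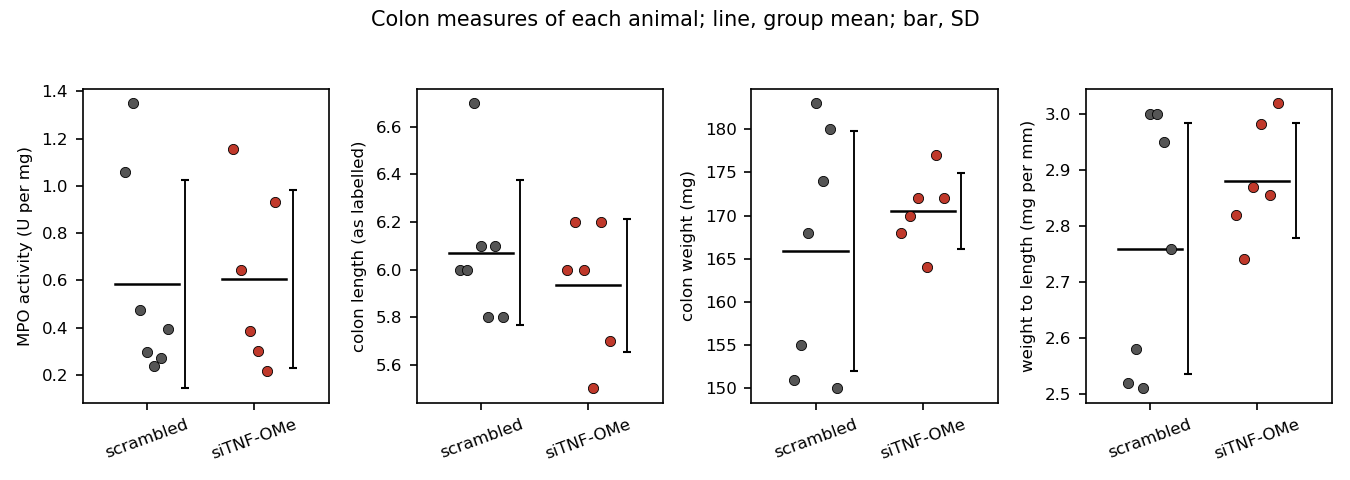
MPO activity, colon length as labelled, colon weight and the labelled weight to length ratio of each animal (points) with scrambled siRNA and siTNF-OMe; lines are group means and bars SD. In all 4 panels the points of the 2 groups overlap, and siTNF-OMe weights span 164 to 177 mg inside the scrambled span of 150 to 183 mg.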

How the data were processed

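Distal colon RNA was amplified, biotin labelled and hybridized to Affymetrix arrays, per the labels' protocols. The authors deposited 1 table of log2 signal for 28853 probe sets. The submitters' processing notes name Partek and RMA (robust multi-array average), and versions or any removal of batch effects are not given in the sources used here. Signal over background was not used, and the number of arrays limits the precision. A platform table gave 1 gene for 21789 probe sets, several for 1621 and none for 5443.

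limma 3.58.1 (R 4.3.3) fitted the log2 values of the 27 siRNA-dosed arrays with group, amplification batch and hybridization batch, empirical Bayes moderation with a mean-variance trend, and Benjamini-Hochberg adjustment over all probe sets (20 residual degrees of freedom, threshold 0.05); Control arrays entered only comparisons that name them. The script was tested on simulated data. Colon measures were compared by exact permutation (SciPy 1.17.1, Python 3.11.15) and adjusted over the 4. The genes named were Tnf, a panel of 36 (35 measured), the 10 of smallest p on each side and, per list, the member of smallest p and of largest difference. Other members at an unadjusted p under 0.05, genes whose groups do not overlap, genes at 1 log2 unit or more and those of single arrays were named after their values were seen. Members and the 44 gene lists were chosen with earlier results of these data known. Alternatives covered arrays, batch terms, normalization, filters, moderation and left-out arrays. Those on arrays with squamous, liver or pancreas transcripts were chosen after seeing the data.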

Additional observations from a re-analysis of the deposited data

Results flagged for a closer look

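In each group, a value was singled out when its gap to the nearest other sample was large for the range of the group. Of 384 sets tested (genes, list means and colon measures in either group), 25 (6.51%) held such a value. The limit would single out about 1 in 20 independent sets of normally spread values. These sets share arrays and genes, and some genes were included after a single array was seen to stand out. The rates therefore cannot be compared.

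Scrambled replicate 2 held 7 of them, all the highest of its group and most of them genes of inflammation and matrix breakdown: Cxcl1 at 9.03, Il6 at 7.55, Mmp10 at 11.01, Mmp13 at 10.60, Mmp3 at 11.57, the mean of the enteric neuron and glia genes at 9.63 and that of the endothelial genes at 9.22. Its MPO activity, 1.35 U/mg, was the highest of the 13 animals. Scrambled replicate 3 was highest for the liver transcripts Alb (11.94), Apoa1 (10.32) and Hpx (10.22), where the next arrays stood at 8.78, 7.95 and 8.08, and it had the longest colon (6.7 against 6.1 for the next).

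The pancreatic protease Prss2 was high in scrambled replicate 5 (12.06, next 7.66) and in siTNF-OMe replicate 1 (9.42, next 7.13). The same arrays were the highest of their groups for Reg3g, at 9.56 and 10.22. Scrambled replicate 5 was also lowest for Prom1 (10.39). In siTNF-OMe replicate 1, Tlr3 was the highest of its group (9.11) and Dusp1 the lowest (9.20).

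Single values stood apart in other arrays. Scrambled replicate 4 was highest for Plk1 (9.49) and lowest for Rftn1 (7.83), replicate 7 was lowest for Isl1 (7.88) and Ptp4a3 (9.73), and replicate 1 was lowest for Rpph1 (13.14). Among the siTNF-OMe arrays, replicate 3 was highest for Ccl8 (10.89) and replicate 2 lowest for Ube2s (9.34).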

How the results depend on the processing

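The count of 0 called probe sets between siTNF-OMe and scrambled siRNA held in 34 of 35 other settings. Leaving out 1 array in turn gave 0 to 1 calls, the 1 being Sfrp2 (0.87, limma adjusted p = 0.0374) without scrambled replicate 6. The 23 settings run against siTNF and against siTNF-OMe-P, which left out the single-batch fits and the removal of scrambled arrays, gave 0 calls. The count at an unadjusted p under 0.05 ran from 155 (hybridization batch 1 alone) to 2090 (array SD as a covariate) for the comparison with scrambled siRNA, and reached 6940 against siTNF without arrays of SD under 1.7, and 3797 against siTNF-OMe-P without the 8 arrays of high squamous mean. The causes were not tested.

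Tnf changed sign to 0.31 in amplification batch 3 alone and to 0.22 without the 8 arrays of high squamous mean. MPO activity changed sign to -0.210 within hybridization batch 1 and to -0.00933 over same-numbered pairs (the replicate block), and leaving out 1 animal gave -0.0879 to 0.150. Colon length changed sign to 0.2 within hybridization batch 1 and colon weight to -0.917 within hybridization batch 2. Of 144 followed genes, 22 changed sign without the 8 arrays, 18 in amplification batch 3 alone, 16 with the squamous mean as a covariate, and 0 under quantile normalization or median centring.

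Equal numbers of the 2 groups share both batch labels, but the labels do not say that they pair animals, so numbers were not taken as pairs. Deviations from the group means correlated between -0.181 and 0.429 for equal numbers, with a median of 0.036 for different numbers. Of 6 equal numbers 2 gave the best match. With the replicate block limma called 0 probe sets in each comparison, with smallest adjusted p of 0.999 against scrambled siRNA, 0.163 against siTNF and 1 against siTNF-OMe-P, and 884, 2812 and 304 at an unadjusted p under 0.05.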
